A study of Arabidopsis thaliana with 10 samples.

Results

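The RNA polymerase II (RNAPII) loops under 100 kb are DNA contacts between 2 different sites of the same *Arabidopsis* chromosome, each site bound by RNAPII, with anchor midpoints less than 100 kb apart. They were picked from the RNAPII loop list by these conditions and numbered 3425 of its 13633 loops (25.1%), and of 59276 loops in the 5 lists of the series. The remaining RNAPII loops joined different chromosomes (5748), sites 100 kb to 1 Mb apart (677), sites over 1 Mb apart (3563) or an anchor with itself (220). The study mapped contacts by ChIA-PET, in which cross-linked chromatin is pulled down with an antibody, DNA ends that lie close together are joined, and the joined pieces are sequenced as paired-end tags (PETs). The material was shoots of 2-week-old wild-type Col-0 seedlings grown under 16 h of light, fixed with ethylene glycol bis(succinimidylsuccinate) and formaldehyde, so every value averages over the cell types of a shoot. RNAPII is set here beside 4 histone mark lists made from the same material, those of H3K4me3, H3K4me1, H3K27me3 and H3K9me2. Each antibody had 2 labelled replicates that point to the same deposited list, 1 per antibody. The list names hold 2 library numbers for RNAPII and H3K9me2, 3 for H3K27me3 and 4 for H3K4me3 and H3K4me1, whose relation to the labelled replicates is not stated in the sources used here. No spread between replicates could therefore be computed and no test between lists or between classes of loops was possible. Intervals are exact or order-statistic 95% intervals that cover counting error only, and loops that share an anchor or a gene are not independent.

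RNAPII transcribes the protein-coding genes, and its ChIP signal in plants is often strongest near the ends of genes, where it slows before release. A loop between RNAPII sites therefore usually joins 2 transcribed genes, or the start and end of a long one. *Arabidopsis* has a small genome in which genes lie close together, so that a span of some 10 kb already passes over whole genes. An anchor is named here by its leading gene, the protein-coding gene (body plus 1 kb upstream) that shares the most bases with it. PET counts are whole numbers of joined pairs per loop, and tag counts are the RNAPII reads at an anchor.

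Promoters of genes at the strongest short loops are shown first because a later result compares the share of promoters with the element CGCGTT over loops of different strength. Each stretch is the 250 bases before the annotated start in the TAIR10.1 build of RefSeq, written 5′ to 3′ on the strand of the gene. Capitals mark CGCGTT or its reverse complement, known as the rapid stress response element, in the first 3. Of the 20 leading genes of the 10 loops with the most PETs, 3 had it there (15%, 3.21 to 37.9), against 5.09% of all leading genes of short loops and 2.59% of all promoters over the same 250 bases. *CBF1* has no match in this window and is shown as the loop partner of *CBF2*. The last 2 are copies of a duplicated gene whose loops are described below, and their capitals mark CACGTG, the G-box. Over these bases the G-box is in 4 of the 20 leading genes (20%, 5.73 to 43.7), 8.90% of leading genes of short loops and 6.49% of all promoters. *CBF2* also holds a G-box, which is left in lower case.
AT5G19250 (chr5:6471577-6471826, plus strand): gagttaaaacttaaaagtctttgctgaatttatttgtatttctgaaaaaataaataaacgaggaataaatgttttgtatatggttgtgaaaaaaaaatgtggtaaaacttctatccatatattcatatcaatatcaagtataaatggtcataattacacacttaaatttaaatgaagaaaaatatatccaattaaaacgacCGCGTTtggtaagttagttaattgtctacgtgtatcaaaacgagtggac
CBF2 (chr4:13016236-13016485, minus strand): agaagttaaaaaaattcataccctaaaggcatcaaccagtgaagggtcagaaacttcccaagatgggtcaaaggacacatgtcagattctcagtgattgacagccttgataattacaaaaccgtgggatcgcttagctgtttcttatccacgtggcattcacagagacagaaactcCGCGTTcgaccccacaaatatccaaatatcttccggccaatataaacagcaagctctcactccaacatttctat
AT4G34150 (chr4:16354607-16354856, plus strand): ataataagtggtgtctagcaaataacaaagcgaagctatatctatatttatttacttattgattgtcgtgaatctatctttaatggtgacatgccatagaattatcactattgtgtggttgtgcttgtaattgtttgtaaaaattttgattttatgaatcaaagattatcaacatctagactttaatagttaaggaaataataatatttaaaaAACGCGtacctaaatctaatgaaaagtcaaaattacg
CBF1 (chr4:13022997-13023246, minus strand): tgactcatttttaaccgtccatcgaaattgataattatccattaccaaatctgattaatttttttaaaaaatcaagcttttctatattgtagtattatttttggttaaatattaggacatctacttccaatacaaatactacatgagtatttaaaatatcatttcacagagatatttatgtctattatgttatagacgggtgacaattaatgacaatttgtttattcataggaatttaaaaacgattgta
AT1G74450 (chr1:27982203-27982452, plus strand): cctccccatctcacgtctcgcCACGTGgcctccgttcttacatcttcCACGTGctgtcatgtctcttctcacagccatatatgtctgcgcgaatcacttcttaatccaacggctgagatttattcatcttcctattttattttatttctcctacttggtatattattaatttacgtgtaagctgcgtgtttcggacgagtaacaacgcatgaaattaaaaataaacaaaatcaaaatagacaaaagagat
AT1G18740 (chr1:6463599-6463848, plus strand): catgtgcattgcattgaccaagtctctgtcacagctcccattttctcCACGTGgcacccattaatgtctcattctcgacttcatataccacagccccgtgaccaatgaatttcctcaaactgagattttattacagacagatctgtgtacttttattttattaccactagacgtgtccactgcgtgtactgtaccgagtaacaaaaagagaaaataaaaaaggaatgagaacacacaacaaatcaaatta
In the first 3 the element began 49, 74 and 37 bases before the start, in the order shown. In AT1G74450 the 2 G-boxes began 203 and 229 bases before the start, and in AT1G18740 the only one began 203 bases before it. A match of letters is a description and not a bound site.

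Of the 10 strongest short loops, 9 spanned 13.3 kb or less. The loop with the most PETs (120) joined AT1G78070, a WD40 repeat gene, to its neighbour *RAP2.4*, which encodes an ERF/AP2 transcription factor, over 8.32 kb (anchors at chr1:29354771-29359349 and chr1:29363959-29366794). A loop of 104 PETs over 11.5 kb joined AT4G32030 to AT4G32060, a gene for an EF-hand calcium-binding protein. *APL1*, a large subunit of ADP-glucose pyrophosphorylase, was joined to AT5G19250, a gene for a GPI-anchored glycoprotein, by 100 PETs over 5.46 kb. The divergent neighbours AT1G74440 and AT1G74450 were joined by 98 PETs. *sks5* and AT1G76170, whose anchor also holds the dehydrin gene *ERD14*, were joined by 96 PETs over 7.89 kb. *CYP707A3*, an abscisic acid 8′-hydroxylase that inactivates the hormone, and AT5G45350 were joined by 91 PETs over 13.3 kb.

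The cold regulators *CBF2* and *CBF1* formed the loop with the most PETs for its tags among these 10. *CBF2* lies in an anchor at chr4:13014531-13016461 with 4130 tags and *CBF1* in one at chr4:13021410-13022845 with 1703 tags, and 89 PETs joined them over 6.63 kb. That is 52.3 PETs per 1000 tags of the anchor with fewer tags, against a median of 7.55 over all short loops. The 2 anchors share an identical run of 68 bases, and how often reads were placed at the wrong copy was not tested. CBF proteins switch on cold-acclimation genes, and the gene between them is *CBF3*, which had no short loop as an anchor gene. *COR47* and *ERD10*, which encode dehydrins that protect cells from cold and drought, were joined by 61 PETs over 3.53 kb, at 4.55 PETs per 1000 tags. The *CBF2* to *CBF1* loop was not matched in the H3K4me3 list, whereas 8 PETs joined the *COR47* and *ERD10* sites there.

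**Figure D1:**
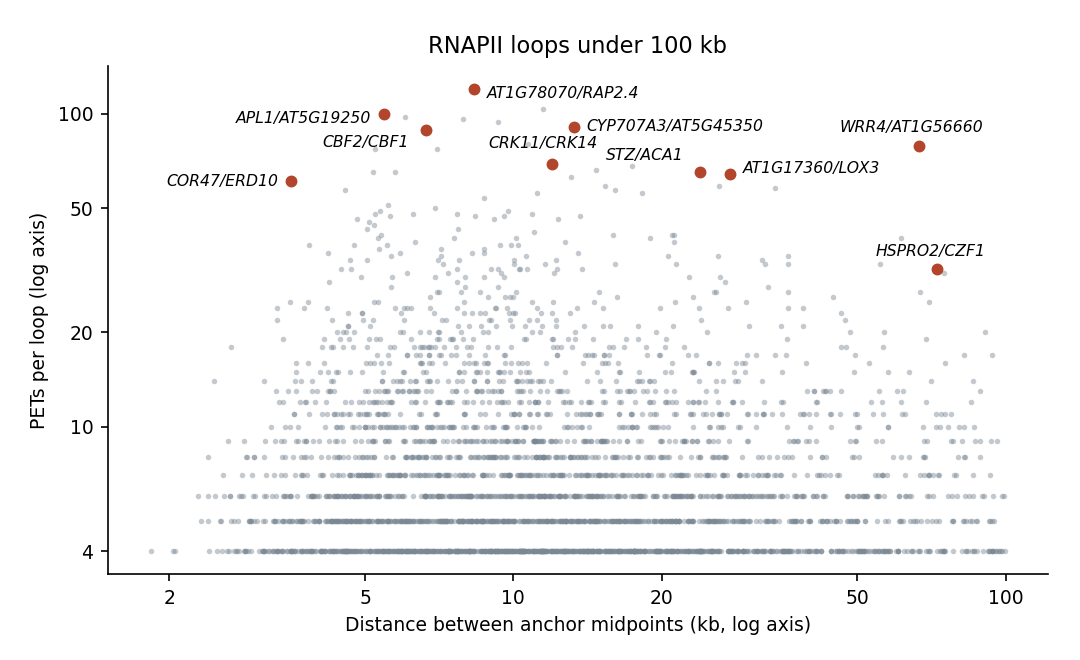
PETs per loop (log axis) against the distance between anchor midpoints in kb (log axis) for the 3425 RNAPII loops under 100 kb, 1 point per loop, with 10 loops named in red. Loops of 4 PETs fill the whole range of spans, while the loop with 120 PETs (AT1G78070 to *RAP2.4*) spans 8.32 kb and the strongest loop over 50 kb (*WRR4* to AT1G56660) has 79 PETs.

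Strong loops were also found beyond 20 kb. From 20 to 50 kb, the loop with the most PETs (65, over 23.96 kb) joined *STZ*, the zinc finger repressor also called *ZAT10*, to *ACA1*, a calcium pump. The next (64 PETs, over 27.6 kb) joined an anchor led by AT1G17360 to *LOX3*, a lipoxygenase of jasmonate synthesis. The AT1G17360 anchor also holds *JAZ5*, a repressor of jasmonate responses. A loop of 59 PETs over 26.2 kb joined AT3G05670, a RING/U-box gene, to the drought-responsive AT3G05700. From 50 to 100 kb, *WRR4*, a TIR-NBS-LRR gene for white rust resistance, was joined to AT1G56660 by 79 PETs over 66.8 kb, with 15 genes and 5 H3K27me3 anchors in between. *ENODL2* and AT4G27657 shared 40 PETs over 61.4 kb, and *MST1* and *RGLG4* 33 PETs over 55.5 kb. *HSPRO2* was joined to *CZF1*, the CCCH zinc finger gene also called *SZF2*, by 32 PETs over 72.5 kb, and *AFB4*, of the auxin receptor family, to *REN1* by 31 PETs over 75.1 kb. These long loops ran between anchors with many tags, from 5997 at *RGLG4* to 70952 at *MST1* for the 5 strongest over 50 kb.

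The short loops as a whole had a median span of 11.05 kb (95% interval 10.7 to 11.4) and quartiles of 6.52 and 21.1 kb, with the shortest at 1.834 kb. The distance was the rule that chose them, so these values describe the set. PETs per loop ran from 4, the minimum of the deposited list within a chromosome, to 120, with a median of 6. 909 loops (26.5%) had 4 PETs, 247 (7.21%) had 20 or more and 31 had 50 or more. The loops were spread evenly over chromosomes 1, 3, 4 and 5, at 29.2 to 30.5 loops per Mb, and were fewer on chromosome 2, at 23.2 per Mb.

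Contacts per tag fell with distance within the short loops. 1542 loops (45.0%) spanned under 10 kb, 968 (28.3%) 10 to 20 kb, 679 (19.8%) 20 to 50 kb and 236 (6.89%) 50 to 100 kb, and the median was 6 PETs in each class. The median PETs per 1000 tags of the anchor with fewer tags were 11.7, 7.77, 3.65 and 2.73 in that order. The tags of that anchor moved the other way, with medians of 612, 876.5, 1730 and 2245.5. The shortest loops thus reached the same median PET count between anchors with fewer tags; the part of tag depth in the order of these classes was not tested. Beyond 100 kb the values were close to those of the longest class: short loops had a median of 7.55 PETs per 1000 tags (7.30 to 7.95), against 2.21 at 100 kb to 1 Mb, 2.37 over 1 Mb and 2.06 between chromosomes. Loops between chromosomes were listed from 6 PETs and the others from 4, and at 6 or more PETs the medians were 7.38, 2.03, 2.05 and 2.06 in that order. An FDR below 0.001 was reached by 75.9% of short loops, against 2.81%, 2.39% and 0.974% of those 3 classes. Median tags of the anchor with fewer tags were 916 for short loops, against 2666, 2369 and 4359 in the 3 classes. Median PETs per loop were 6, against 5, 5 and 8. The part of tag depth in these differences beyond 100 kb was not tested either.

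**Figure D2:**
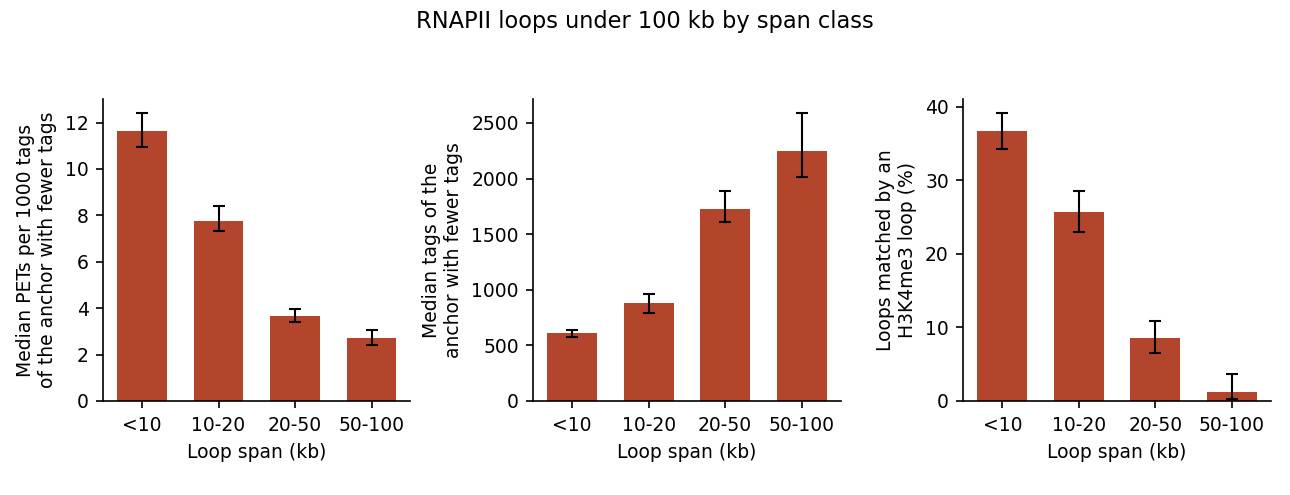
Bars give, for the 4 span classes of the RNAPII loops under 100 kb, the median PETs per 1000 tags of the anchor with fewer tags, the median tags of that anchor, and the percentage of loops matched by an H3K4me3 loop, with 95% intervals. From the shortest to the longest class, PETs per 1000 tags run from 11.7 to 2.73, tags from 612 to 2245.5 and the matched share from 36.6% to 1.27%.

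Near the limit of 100 kb the loops were weak on the inner side and mixed on the outer side. The 5 loops just inside ran from AT4G33905 to AT4G34150 (99.643 kb, 4 PETs), *LRX3* to *AMT1;1* (99.401 kb, 6 PETs), AT1G69910 to AT1G70190 (98.353 kb, 4 PETs), AT4G22980 to *CRK11* (98.081 kb, 6 PETs) and AT3G50270 to *HR4* (97.743 kb, 4 PETs). The 5 just outside ran from AT2G18420 to AT2G18690 (100.529 kb, 11 PETs), *MLO8* to AT2G17710 (101.744 kb, 4 PETs), *BIP2* to *UBL5* (101.756 kb, 4 PETs), AT1G32700 to AT1G32928 (101.924 kb, 22 PETs) and AT3G19020 to AT3G19240 (102.462 kb, 17 PETs).

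Most RNAPII anchors took part in a short loop, though at a minimum of 6 PETs the share was near 50%. Of 4520 RNAPII anchors, 3615 (80.0%, 78.8 to 81.1) had at least 1 short loop, and 51.5% (49.99 to 52.9) had 1 of 6 or more PETs. Anchors with both short and longer loops were the largest class (2157, 47.7%) and had a median of 2641 tags over 2929 bp. Those with short loops only (1458, 32.3%) had a median of 388 tags over 948 bp, and those with longer loops only (904, 20.0%) had 998.5 tags over 1686 bp. Of the anchors with short loops, 1992 (55.1%) had 1, 807 (22.3%) had 2 and 211 (5.84%) had 5 or more.

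The anchors with the most short loops had 8 to 10 each. 10 loops with 146 PETs met at AT4G34150, whose product has a calcium-dependent lipid-binding domain (30523 tags), and its strongest partner was *UGT73B2*, a flavonoid glucosyltransferase, with 80 PETs. 10 loops with 123 PETs met at *HSPRO2*, an ortholog of a sugar beet nematode resistance gene (34122 tags), with 34 PETs to AT2G39980 and 32 to *CZF1*. *PAA2*, a copper pump of the chloroplast, had 9 loops with 120 PETs, and AT1G70100 had 9 with 74. *ORA47*, an ERF/AP2 factor of jasmonate synthesis, had 9 loops with 73 PETs from an anchor of 6733 tags. Its strongest partner, with 25 PETs, was *TIFY10B*, the jasmonate repressor gene also called *JAZ2*.

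The hubs differed in how their PETs were divided among partners. *BCB*, a blue copper-binding protein of the cell surface, had 8 loops with 168 PETs, of which AT5G20190 took 56 and *DIN10*, a dark-inducible gene, 46. AT5G62570, a calmodulin-binding protein, had 8 loops with 137 PETs, 66 of them to *SRO5*, and AT5G62460, of the RING/FYVE/PHD zinc finger superfamily, had 8 loops with 130 PETs, 33 of them to *SRO5*. AT1G76640, which encodes the calmodulin-like protein CML39, had 8 loops with 133 PETs, led by AT1G76600 with 40. *MST1*, a mercaptopyruvate sulfurtransferase, had 8 short loops with 150 PETs at the anchor with 70952 tags, which also had 190 longer or interchromosomal loops. *ORA47* had 9 such loops beside its 9 short ones, and *HSPRO2* had 69.

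Short loops that shared anchors formed 813 connected groups. 316 groups (38.9%) were a single pair of anchors, while 86 had 10 or more anchors and held 1113 (30.8%) of the short-loop anchors. The largest group (25 anchors, 32 loops, 226 PETs) covered 352 kb of chromosome 1 (26239216 to 26591546) around AT1G70100 and held *CMT3*, a DNA methyltransferase, and the receptor kinase genes *CRK2* and *CRK3*. The next, of 24 anchors and 183 PETs, was centred on *AVP1*, the vacuolar proton pump, and held *TPL*, a corepressor, and *LHCB6*. A group of 22 anchors and 283 PETs around *PEPR1*, the receptor of wound-induced Pep peptides, held the loop from *JAZ6* to *LOX4* (27 PETs, 36.1 kb). Another of 22 anchors, with 174 PETs, was centred on the drought regulator *DREB2A*, which had 16 PETs with the abscisic acid receptor gene *PYL5*. The fifth had 21 anchors but 433 PETs within 194 kb, around AT4G27657, and held *RD26*, a dehydration-induced NAC factor.

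Neighbouring anchors were joined most often. Of all 4349 pairs of adjacent RNAPII anchors under 100 kb apart, 42.2% (40.7 to 43.7) had a short loop, and the share was 21.5% with 1 anchor in between, 10.4% with 2, 5.86% with 3 and 2.43% with 5. Seen from the loops, 1835 (53.6%) joined neighbours, 867 (25.3%) passed over 1 anchor and 723 (21.1%) over 2 or more, at median spans of 7.31, 13.3 and 29.3 kb. The most anchors passed by a loop were 12. When 2 loops met at an anchor and their far ends lay under 100 kb apart, those ends were themselves joined in 1917 of 6092 cases (31.5%). A closed triangle counts once at each of its anchors, so the 1917 cases come from 639 triangles.

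Almost every short loop had a gene at both ends, and the anchors lay more often over the ends of genes than over their starts. 3358 loops (98.0%) had a leading gene at both anchors. A leading gene was present at 3572 of 3615 short-loop anchors and at 896 of 905 RNAPII anchors without a short loop, so this is not particular to short loops. 251 loops (7.33%) had 1 gene body reaching into both anchors, such as *SHA1* in the loop of 65 PETs between *DGK2* and *NAC102*. The midpoint of a short-loop anchor lay between 0.5 and 0.75 of the length of its leading gene in 42.8% of cases, from there to the gene end in 18.6% and in the first 0.25 in 12.2%. The same shares at RNAPII anchors without a short loop were 41.0%, 23.7% and 9.93%. Only the end of the leading gene was covered by 45.4% of short-loop anchors and only its start by 11.7%, against 51.7% and 12.1% of anchors without a short loop. Short-loop anchors covered both the start and the end of the leading gene in 26.4% (24.96 to 27.9) and anchors without a short loop in 20.6% (18.0 to 23.4). When a promoter was taken as 1 kb before to 0.5 kb after a gene start and 1 bp of overlap was enough, 81.0% of short loops joined 2 promoters, 18.3% had 1 promoter anchor and 0.672% had none. Only 6.04% joined 2 promoters when the anchor midpoint had to lie in the promoter. With 1 bp of overlap, 85.2% (84.0 to 86.3) of short-loop anchors touched a promoter, against 77.7% (74.8 to 80.4) of anchors without a short loop.

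Between the 2 leading genes lay a median of 2 other protein-coding genes. 805 loops (24.4%) joined adjacent genes, 615 (18.7%) had 1 gene between, 1184 (35.9%) 2 to 5 and 692 (21.0%) 6 or more. Adjacent genes joined by a loop lay on the same strand in 56.8% (53.3 to 60.2) and were divergent in 18.9% (16.2 to 21.8), against 51.9% and 24.1% of all adjacent gene pairs of the genome. Over all distances the same-strand share was 52.0% of short loops and 50.3% of all gene pairs. AT1G74440 and AT1G74450 (98 PETs) are thus of the less common, divergent kind.

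A larger share of genes of light harvesting and of the first response to stress than of all genes was at short-loop anchors. A gene counted as an anchor gene when the anchor covered 0.5 of it (with 1 kb upstream) or it covered 0.5 of the anchor, which held for 4085 of 27444 protein-coding genes, or 14.9%. The lists were drawn up with earlier results of these data known, so their shares are a description. The antenna and Rubisco list had 21 of 23 genes at short-loop anchors (91.3%), the JAZ repressors 9 of 10 (90.0%), touch and calcium signalling genes 12 of 13 (92.3%) and early response transcription factors 25 of 30 (83.3%). Genes annotated as ribosomal proteins had 107 of 329 (32.5%), histones 13 of 52 (25.0%), glutathione S-transferases 9 of 56 (16.1%), cytochrome P450 genes 25 of 248 (10.1%) and heat shock proteins 5 of 80 (6.25%). These last lists were made by words in the annotated product and can hold other kinds of protein. None of 13 floral identity genes was an anchor gene by this 0.5 rule, which allows a share of up to 24.7%. *PI*, of this list, was touched within its body or 1 kb upstream by the *BCB* anchor, which had 8 short loops, but the cover was too small.

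Most of these genes were at RNAPII anchors of any kind. 22 of 23 antenna and Rubisco genes, 29 of 30 early response factors, 10 of 10 JAZ genes and 12 of 13 touch and calcium genes were RNAPII anchor genes, against 5037 of 27444 protein-coding genes (18.4%). Of the RNAPII anchor genes, 95.5% (77.2 to 99.9), 86.2% (68.3 to 96.1), 90.0% (55.5 to 99.7) and 100% (73.5 to 100) in the order of these lists had a short loop, against 81.1% (79.99 to 82.2) over all genes, a value that lies inside each of the 4 intervals. For ribosomal protein genes it was 71.3% (63.4 to 78.4) and for P450 genes 92.6% (75.7 to 99.1).

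The lists with the highest shares also had anchors with many RNAPII tags. Anchor genes of the early response list had a median of 8151 tags, the JAZ genes 9440, touch and calcium genes 8327.5 and antenna and Rubisco genes 5058, against 1720 over all 4085 short-loop anchor genes. The part of tag depth in these shares was not tested. Ribosomal protein genes, with 1587 tags, and P450 genes, with 1057, were below that median.

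PETs per anchor gene were lower for the antenna and Rubisco list than for the early response, JAZ and touch lists, but not than for every stress-related list. Genes that share an anchor are each given all of its PETs, so totals of neighbouring genes can come from the same loops. Medians were 20 PETs and 2 loops for antenna and Rubisco genes, 42 PETs and 3 loops for early response factors, 34 PETs and 4 loops for JAZ as for touch genes, and 11 PETs and 2 loops over all anchor genes. Heat shock genes had medians of 21 PETs and 2 loops, glutathione S-transferases of 17 and 2, and P450 genes of 11 and 2. Ribosomal protein genes had medians of 8 PETs and 1 loop, and histone genes of 5 PETs and 1 loop. In the antenna list *LHCB6* had 38 PETs in 6 loops, *LHCA2* 38 in 4 and *RBCS3B*, a Rubisco small subunit, 29 in 2, while *LHCB4.3* and *LHCB5* had none. Of the early response factors *ZAT10* had 96 PETs in 6 loops, *ERF4*, an ethylene-response repressor, 95 in 6 and *SZF1* 93 in 8. *CBF3*, *WRKY6*, *NAC032*, *ERF13* and *ZAT6* had none.

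Within these lists the highest total was 133 PETs, against 186 over all short-loop anchor genes. CML39 (AT1G76640) had 133 PETs in 8 loops, *MKK9*, a MAP kinase kinase of ethylene and stress signalling, 116 in 6 and *TCH3*, a touch-induced calmodulin-like protein, 86 in 8, and *CML38* had none as an anchor gene. *JAZ5* had 124 PETs in 6 loops, *JAZ6* 62 in 4 and *JAZ9* 59 in 4, and *JAZ12* had none. *CYP707A3* led the P450 genes with 115 PETs in 5 loops, before *CYP81G1* (72 in 8) and AT3G15760 (49 in 4). *GSTF2* led the glutathione S-transferases with 54 in 6, before *GSTU5* (36 in 3) and *GSTF8* (32 in 4). In the heat shock list the most PETs were those of *BIP2* (52 in 4), *cpHsc70-1* (36 in 3) and AT5G02480 (21 in 2), the first 2 of which are chaperones of the endoplasmic reticulum and the chloroplast. AT1G70600 (51 PETs), AT5G24510 (47) and AT5G46430 (44) led the ribosomal list, and *HTB9* (20), AT4G40030 (13) and AT4G40040 (13) the histones.

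**Figure D3:**
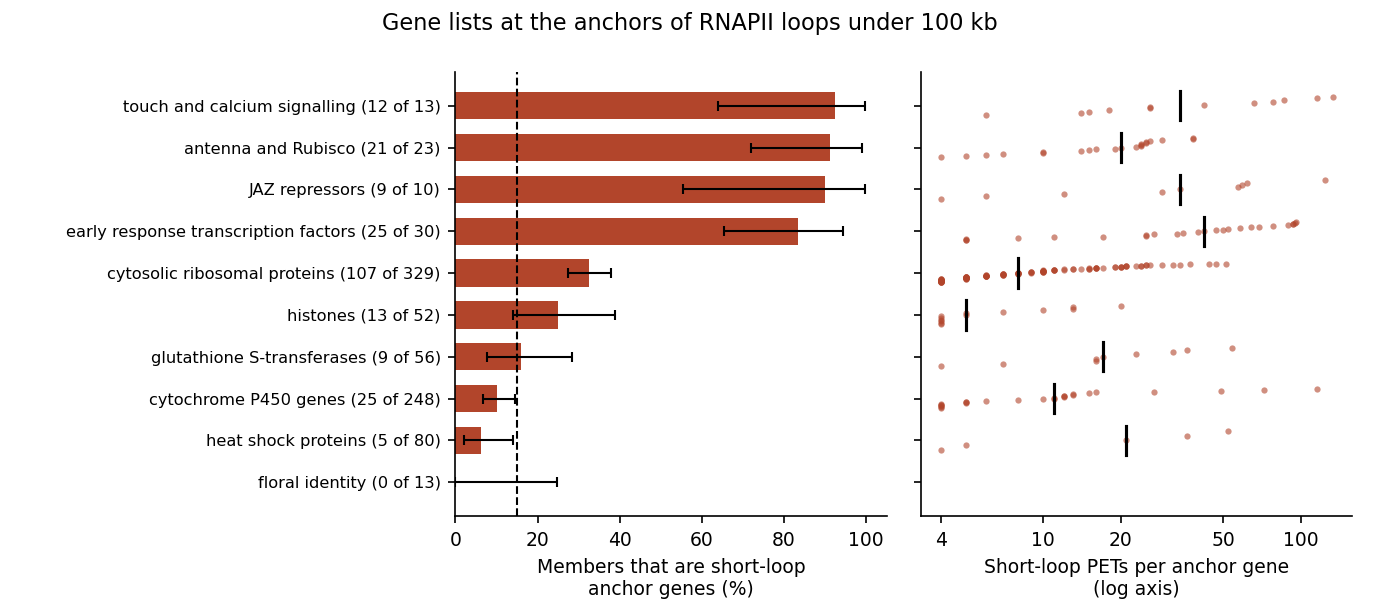
Left, the percentage of each gene list at anchors of RNAPII loops under 100 kb, with exact 95% intervals and a dashed line at the 14.9% of all protein-coding genes. Right, the summed short-loop PETs of each anchor gene (log axis), 1 point per gene, with a bar at the median: early response factors have a median of 42 and ribosomal protein genes of 8.

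Some short loops joined members of 1 list. The *LHCB1* cluster had 14 PETs from *LHCB1.1* to *LHCB1.3* and 10 from *LHCB1.2* to *LHCB1.3*, and *LHCB2.2* and *LHCB2.1* shared 24 over 23.8 kb. The Rubisco small subunit cluster was joined in all 3 ways, with 15 PETs from *RBCS3B* to *RBCS1B*, 14 from *RBCS3B* to *RBCS2B* and 5 from *RBCS2B* to *RBCS1B*. *GSTU7* and *GSTU5* shared 17 PETs, *RPL12-A* and *RPL12-C* 14, and 5 pairs of P450 genes 4 to 8 each. Reads of close copies can be placed at the wrong member, so these loops are uncertain. The longest unbroken run shared by the anchors was 310 bases for *RBCS3B* and *RBCS1B*, the longest of all loops between related proteins, 97 for *RBCS3B* and *RBCS2B* and 89 for *RBCS2B* and *RBCS1B*. It was 119 for *LHCB1.1* and *LHCB1.3*, 74 for *LHCB1.2* and *LHCB1.3*, 152 for *LHCB2.2* and *LHCB2.1*, 256 for *RPL12-A* and *RPL12-C* and 17 for *GSTU7* and *GSTU5*. No loop joined 2 JAZ genes or 2 touch and calcium genes.

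Loops between genes for related proteins (at least 30% identity over 0.5 of the shorter protein) made up 108 of 3296 pairs with 2 leading genes (3.28%), against 1.16% of all gene pairs within 100 kb. The 2 sets differ in distance. Among adjacent genes the share was 5.96% (4.43 to 7.83) of looped pairs and 8.63% of all pairs, and with 2 to 5 genes between it was 2.196% and 2.03%. Related pairs had a median of 9 PETs (7 to 13) and the other pairs 6.

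Of the 10 related pairs with the most PETs, 3 included a cysteine-rich receptor kinase gene. AT1G33600 and AT1G33610, leucine-rich repeat proteins of 64.8% identity, were joined by 94 PETs, and *CBF2* and *CBF1* (86.6% identity) by 89. The cysteine-rich receptor kinases *CRK11* and *CRK14* shared 69 PETs, and *CRK11* and its neighbour *EP1* 50. AT1G65486 and AT1G65490 (72.7% identity) shared 65 PETs and *COR47* and *ERD10* (60.4%) 61. The berberine-bridge-type AT4G20840 and AT4G20860 shared 33 and *WRR4* and AT1G56540, both TIR-NBS-LRR genes, 32. The lectin-type AT1G78820 and AT1G78850 shared 31, as did *CRK14* and *EMB1290* and, outside the first 10 by its position alone, AT5G38990 and AT5G39030. The longest identical runs between anchors were 45 bases for AT1G33600 and AT1G33610, 68 for *CBF2* and *CBF1*, 41 for *CRK11* and *CRK14* and 37 for *COR47* and *ERD10*. Over all 108 loops the median longest run was 26.5 bases, 26 loops had one of 50 or more and 9 one of 100 or more. How often reads were placed at the wrong copy was not tested.

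Some looped gene pairs had a second, duplicated pair elsewhere in the genome that was looped too. AT1G74440 and AT1G74450 (98 PETs over 6.02 kb) correspond to AT1G18720 and AT1G18740 elsewhere on chromosome 1, joined by 48 PETs over 6.27 kb, at protein identities of 74.0% and 70.2%. These are the genes whose promoters with G-boxes were shown. *ERD7* and AT2G17880 (25 PETs) correspond to AT4G35985 and *J11* (18 PETs). AT1G01540 and *MPK11*, a MAP kinase, shared 38 PETs, and AT4G01330 and *MPK4* shared 11. *PHI-1* and *GF14 PHI*, a 14-3-3 protein, shared 18, and *EXO* and *GRF1* 10. *SZF1* and AT3G56050 shared 21, and *CZF1* and AT2G40270 9.

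Other such pairs had fewer PETs. *TPS8* and *KUP6*, a potassium transporter, shared 13 PETs, and *TPS10* and AT1G60160 9. *LCL1* and AT5G02870, a gene for ribosomal protein L4, shared 10, and *RVE8*, a clock factor, and AT3G09630 8. The MAP kinase kinase gene *MKK4* and *4CL1*, of lignin synthesis, shared 16, and *MKK5* and *4CL5* 5. *ACR8* and AT1G12440 shared 7 PETs, as did *ACR7* and AT4G22820. The loop of *JAZ5* with *LOX3* (64 PETs) and that of *JAZ6* with *LOX4* (27 PETs over 36.1 kb) also join like genes, but *JAZ5* does not lead its anchor and the pair was not counted. These pairs were chosen after their values were seen.

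Of 3154 gene pairs joined by a short loop, 145 had a duplicated RNAPII-anchored pair at least 1 Mb away or on another chromosome. The duplicate was looped as well in 85 of these 145, or 58.6% (50.2 to 66.7). Among 394 pairs that lay under 100 kb apart, had such a duplicate but had no loop, the duplicate was looped in 82, or 20.8% (16.9 to 25.2). With no RNAPII anchor in between the shares were 66.3% and 35.7%, with 1 anchor 50.0% and 26.3%, and with 2 or more 48.4% and 14.8%. Both pairs of a couple enter the count, so the values are not independent. Looped pairs had a median of 1304 tags at the anchor with fewer tags and unlooped pairs 625. Where both anchors had at least 1000 tags the shares were 68.8% (33 of 48) and 38.5% (20 of 52), with intervals of 53.7 to 81.3 and 25.3 to 53.0. These 2 sets differ in distance, as 11 of the 48 looped and 36 of the 52 unlooped pairs had 2 or more anchors in between. The counts were 15 of 20 and 4 of 6 with no anchor in between and 10 of 17 and 4 of 10 with 1 anchor. With 2 or more anchors they were 8 of 11 and 12 of 36. The intervals of looped and unlooped pairs overlapped in each of these classes. Leaving out pairs of related proteins, at any number of tags, gave 54.2% and 18.1%.

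**Figure D4:**
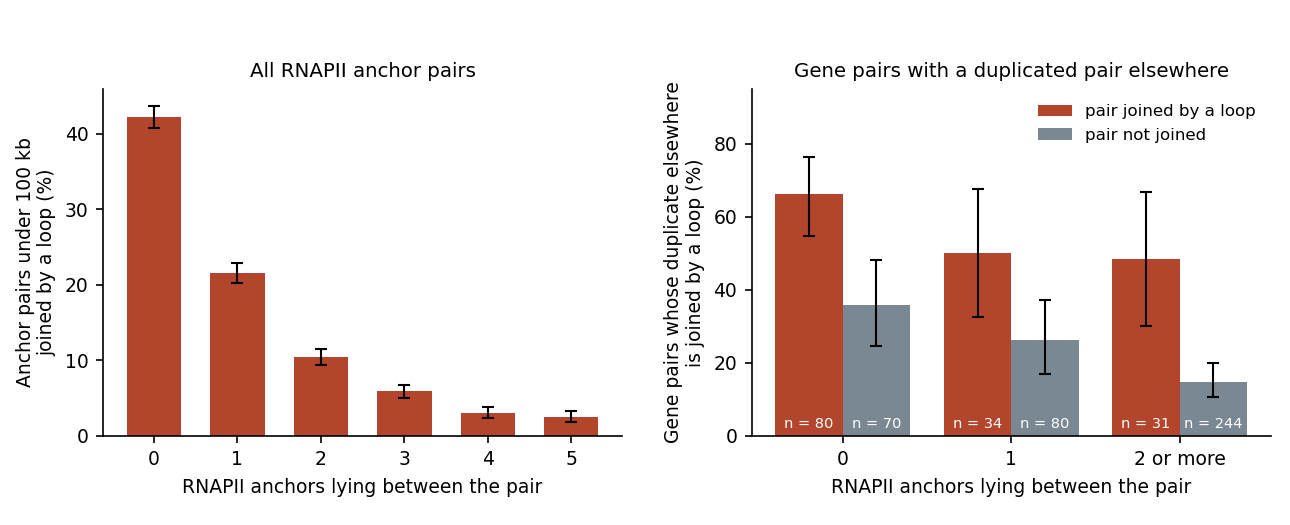
Left, the percentage of all RNAPII anchor pairs under 100 kb that were joined by a loop, by the number of RNAPII anchors in between, from 42.2% with none to 2.43% with 5. Right, the percentage of gene pairs whose duplicate elsewhere was joined by a loop, for joined pairs (red) and pairs not joined (grey); bars are exact 95% intervals, and joined pairs are higher in each class, at 66.3% and 35.7% with no anchor in between.

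The rapid stress response element was more frequent at stronger loops. In promoter windows of 250 bases before to 50 after the start, on either strand, CGCGTT was found in 5.55% of leading genes whose strongest short loop had 4 or 5 PETs, 6.14% at 6 to 9, 8.00% at 10 to 19 and 12.3% (50 of 405, 9.30 to 16.0) at 20 or more. It was found in 5.16% of leading genes of other RNAPII anchors and in 3.40% of all 27444 promoters. AT5G19250, *CBF2* and AT4G34150, shown above, are in the strongest class. Median tags moved with it, at 615, 1250, 2491 and 6345 over the 4 classes. Within 1000 to 5000 tags the shares were 8.83% for genes with a loop of 10 or more PETs, 7.66% for genes with weaker short loops and 6.37% for genes with none, and at 5000 or more tags they were 12.3%, 11.4% and 10.0%. The intervals of these 3 overlapped in each class of tags.

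**Figure D5:**
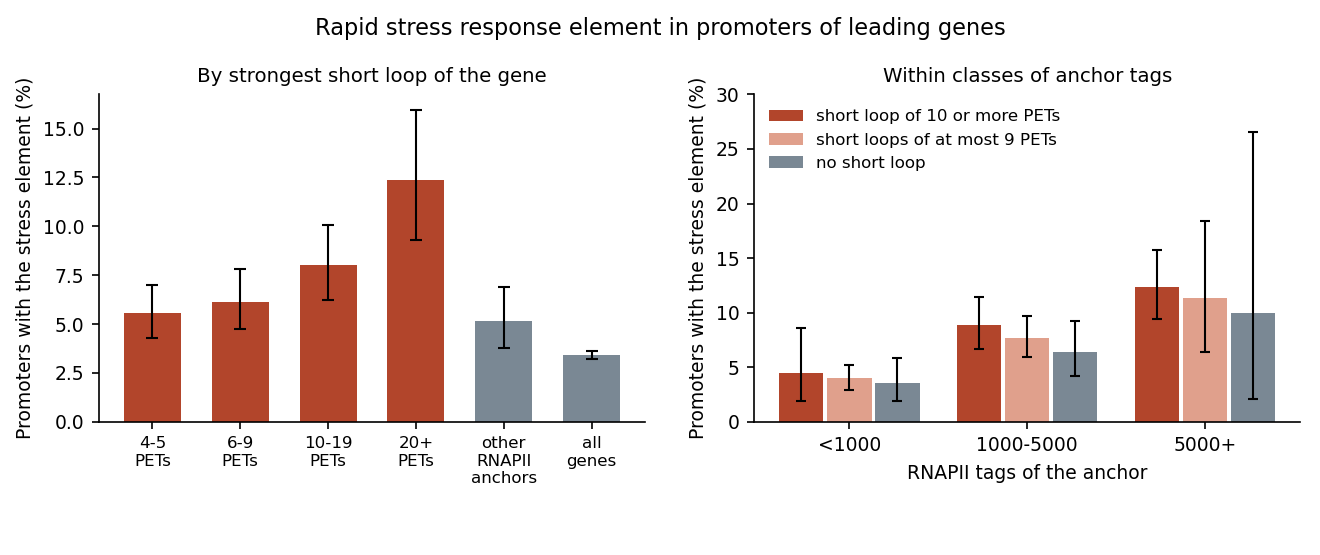
Left, the percentage of promoters of leading genes with the rapid stress response element, by the PETs of the strongest short loop of the gene (red), beside other RNAPII anchors and all genes (grey), from 5.55% at 4 or 5 PETs to 12.3% at 20 or more. Right, the same share within classes of RNAPII tags of the anchor, where the exact 95% intervals of the 3 kinds of gene overlap in every class.

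Of the other elements, CCGAC also rose from the weakest to the strongest class of loops, whereas AAACCCT was less frequent at the strongest loops. AAACCCT, the telo-box of ribosomal and growth genes, was found in 3.95% (2.27 to 6.34) of promoters at loops of 20 or more PETs and in 6.89% over all short loops, against 9.71% at other RNAPII anchors and 10.0% of all promoters. CACGTG was found in 9.63% (6.94 to 12.9) of promoters at loops of 20 or more PETs, 10.7% of all short-loop promoters, 10.6% of those at other RNAPII anchors and 7.68% of all. CCGAC, the drought and cold element bound by CBF and DREB factors, was found in 13.1%, 14.7%, 15.7% and 18.8% (15.1 to 22.9) of promoters from the weakest to the strongest class of loops, against 17.6% (15.1 to 20.4) at other RNAPII anchors and 15.05% of all. TATAAA was found in 52.8% of short-loop promoters, 51.1% at other RNAPII anchors and 52.1% of all and TGGGCC in 15.8%, 18.1% and 15.5% of these. Of the early response list, 1 of 30 genes had CGCGTT, of the touch and calcium list 2 of 13 and of the ribosomal list 6 of 329.

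Part of the short loops recurred in the H3K4me3 list, the mark of active gene starts. 875 short loops (25.5%, 24.1 to 27.04) had both anchors on those of an H3K4me3 loop, against 1 of 677 RNAPII loops from 100 kb to 1 Mb (0.148%) and 0.225% of those over 1 Mb. The share was 36.6% under 10 kb, 25.7% at 10 to 20 kb, 8.54% at 20 to 50 kb and 1.27% at 50 to 100 kb, and 38.0% of loops with 10 or more PETs were matched. In 1739 short loops both anchors touched H3K4me3 anchors, and 50.3% of these were matched by a loop there. *APL1* and AT5G19250 had 38 PETs in the H3K4me3 list, AT1G33600 and AT1G33610 22 and AT4G32030 and AT4G32060 18. The lists differ in PET minimum (4 for RNAPII and 6 for H3K4me3), and at a minimum of 6 in both, 31.0% (28.9 to 33.1) of 1934 short loops were matched.

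Matches in the other lists were few. 106 short loops (3.09%) were matched by an H3K4me1 loop, 13 (0.38%) by an H3K27me3 loop and 0 of 3425 by an H3K9me2 loop, which allows up to 0.108%. Loops matched in both the H3K4me3 and H3K4me1 lists numbered 23, led by AT5G19120 and AT5G19150 (38 RNAPII PETs, 17 for H3K4me3, 8 for H3K4me1), AT5G58120 and the blue-light receptor gene *PHOT2* (23, 9 and 6) and the calcium pump gene *ACA11* and AT3G57340 (18, 8 and 9). Of those matched by H3K27me3, the mark of Polycomb repression, *OFP10* and AT5G22270 had 33 RNAPII PETs and 14 for H3K27me3, AT3G15810 and *ROD1* 32 and 8, and AT3G46080 and *ZAT7*, zinc finger genes of 87.6% identity, 18 and 11. Contacts in the same cells and in different cells cannot be told apart in whole shoots.

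Short RNAPII loops passed over H3K27me3 anchors in shares near those of H3K4me3 loops of like span up to 50 kb. 625 (18.2%) had at least 1 H3K27me3 anchor between their own, against 10.9% of H3K4me3 loops under 100 kb. By span class the shares were 3.76% and 4.14% under 10 kb, 16.4% and 17.4% at 10 to 20 kb, 37.0% and 36.1% at 20 to 50 kb and 66.5% (60.1 to 72.5) and 53.2% (43.4 to 62.8) at 50 to 100 kb. The loop from AT1G51805, a leucine-rich repeat kinase gene, to *IAA18*, an auxin repressor, passed over 11, the most of all.

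Short loops were a smaller part of the RNAPII list than of the others. They made up 44.7% (43.6 to 45.8) of RNAPII loops within a chromosome, against 71.1% for H3K4me3, 65.1% for H3K4me1, 71.4% for H3K27me3 and 85.0% for H3K9me2. At a common minimum of 6 PETs the shares were 49.9%, 71.1%, 65.1%, 76.8% and 90.3%. The median span of 11.05 kb was above those of H3K4me3 (8.33 kb) and H3K4me1 (9.49 kb) and below those of H3K27me3 (13.8 kb) and H3K9me2 (19.2 kb).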

How the data were processed

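ChIA-PET libraries of 5 antibodies with 2 replicates each (10 samples) were used as 5 deposited loop lists. According to the methods, the authors ran ChIA-PET Tool V3 on reads mapped to TAIR10 (the build in the submitters' processing notes), took ChIP-seq peaks as given anchors, combined the replicates, and filtered at an FDR under 0.05 and at a PET minimum that followed depth. For the aligner, settings are not given in the sources used here. PETs and anchor tags were deposited by the authors as raw counts. The authors also deposited adjusted p-values (FDR), used here as a filter and to give the share of loops below 0.001 in each class of distance. The total of mapped reads is not in the lists, so the depth per library is not known here, and the tags of the anchors stand for it. Other columns were not used.

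Genes and sequences came from RefSeq TAIR10.1, in which no position in the lists runs past the end of any of the 5 nuclear chromosomes (chromosome 1 ends at 30427671 and the lists reach 30415245). Proteins were translated from the longest coding sequence and compared with BLAST+ 2.17.0 (blastp, e-value 1e-05), with 3 best hits per gene for duplicated pairs. Shares, medians and groups were computed with Python 3.11.15, pandas 2.3.3, scipy 1.17.1 and networkx 3.6.1, and 7 checks on simulated loops were passed. No differential test applied to 1 pooled list per antibody.

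The loops and the gene lists were chosen with earlier results of these data known. The loops and genes named were the 10 loops with the most PETs, the 3 strongest per span class, the 5 strongest over 50 kb, the 5 on either side of 100 kb, the 10 anchors with the most loops, the 5 largest groups, the 3 list members with the most PETs, the 10 strongest loops between related proteins and the 3 strongest matched in both H3K4 lists. Others (duplicated pairs, list members without loops, H3K27me3 matches) were chosen after their values were seen. Alternatives were a PET minimum of 6, an FDR below 0.001, and other rules for promoters, leading genes, protein identity, anchor overlap and anchor genes.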

Additional observations from a re-analysis of the deposited data

How the results depend on the processing

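With a PET minimum of 6, 1934 loops remained, with a median span of 10.6 kb and 9 PETs, 84.8% joined 2 promoters, 4.29% joined related proteins, 31.0% were matched by H3K4me3 and 51.5% of RNAPII anchors took part. Shares of loops under 100 kb were then 49.9% for RNAPII, 76.8% for H3K27me3 and 90.3% for H3K9me2. With an FDR below 0.001, the median span was 9.12 kb with 7 PETs and 1 gene between, 78.3% joined 2 promoters, 4.19% joined related proteins, 30.4% were matched by H3K4me3, 72.4% of anchors took part and 30.1% of triads were closed. The promoter pair share was 6.04% by anchor midpoint, the related share 2.52% at 50% identity and the H3K4me3 match 22.4% with 0.5 of the smaller anchor covered. At 6 or more PETs, an alternative chosen after seeing the data, the median PETs per 1000 tags was 2.03 at 100 kb to 1 Mb and 2.05 over 1 Mb. The other 17 comparisons of an alternative with its main value, 5 of them chosen after seeing the data, moved by less than their interval or, for counts, by under 1.5 times. Among these, the H3K4me3 and H3K4me1 shares and the interchromosomal median could not move, because those loops were already listed from 6 PETs. Among duplicated pairs, 68.8% of looped pairs had a looped duplicate at 1000 tags or more, an alternative chosen after seeing the data. No paired analysis was possible because both labelled replicates share 1 list, and for the same reason no replicate could be left out. A loop below 4 PETs could not be listed, which limits what can be seen at anchors with few tags.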

Other observations

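Among loops of 20 or more PETs, those with the most PETs per 1000 tags of the weaker anchor are given here; the measure itself favours loops with an anchor of few tags. AT3G13740, of the ribonuclease III family (176 tags), and *BGAL1*, a beta-galactosidase gene (9785 tags), shared 21 PETs over 7.71 kb, or 119 per 1000 tags of the weaker anchor. *HSL1*, a gene of the B3 repressor family annotated as HSI2-like (251 tags), and AT4G32030 (44921 tags) shared 28 PETs over 5.64 kb, or 112 per 1000 tags. *FRB1* (11996 tags) and AT5G01110 (346 tags) shared 36 PETs over 5.88 kb, or 104 per 1000 tags, and *FIB4*, a plastid fibrillin gene (7878 tags), and *FAO3* (215 tags) 20 PETs over 6.46 kb, or 93.02 per 1000 tags. Of these 4 loops, *FIB4* to *FAO3* was matched in the H3K4me3 list, with 10 PETs, and the other 3 were not.

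Some of the 251 loops in which 1 gene body reached into both anchors lay at disease resistance genes, whose share was not counted. *RLM3*, a gene of resistance to fungal pathogens, did so in a loop of 40 PETs over 5.32 kb to AT4G16983 that had 21 PETs in the H3K4me3 list. AT4G19520, a TIR-NBS-LRR gene, did so in a loop of 37 PETs over 7.12 kb to AT4G19510, which had no match in the H3K4me3 list and 7 PETs in the H3K4me1 list. In the loop of 29 PETs over 4.23 kb from *RPP13*, a downy mildew resistance gene, to *SOS5*, the gene in both anchors was AT3G46540, which lies between them, and the H3K4me3 list had 35 PETs there. The elongation factor genes AT1G07920 and AT1G07940, whose proteins are 100% identical, were joined by 2 separate loops of 30 and 28 PETs over 7.98 and 7.99 kb. The longest identical runs between the anchors were 12 and 13 bases. A run compares the 2 anchors of a loop with each other, not an anchor with the like part of the other copy. How often reads were placed at the wrong copy was not tested. These loops were chosen after their values were seen.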
